A study of Homo sapiens with 6 samples.

Results

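The genes described here are 47 integrin subunits and focal adhesion proteins, chosen by gene symbol from a deposited table of 61806 genes. They comprise 17 alpha subunits, 8 beta subunits and 22 adaptors, kinases and scaffolds. RNA sequencing was carried out in U87-MG, an established human glioblastoma cell line that the labels call wildtype in genotype and glioma in cell type. The 3 negative control (NC) libraries were compared with 3 libraries labelled GRIK1 siRNA, that is, cells transfected with small interfering RNA against GRIK1, which encodes a kainate-type glutamate receptor subunit. The study's text describes several siRNA sequences and says that the most effective one was used in later experiments, whereas the labels number these libraries siRNA1, siRNA2 and siRNA3. Whether those numbers stand for replicates or for sequences is not stated in the sources used here. No label states that the libraries of a group came from separate cultures, and p-values therefore measure the spread between these libraries, which may be technical.

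Integrins are heterodimers of an alpha and a beta subunit that bind extracellular matrix outside the cell and actin-linked proteins inside it. The alpha subunit largely sets the ligand: collagen, laminin, or proteins with the Arg-Gly-Asp (RGD) motif such as fibronectin and vitronectin. Talin and kindlin bind the beta tail and activate the receptor, vinculin and the ILK, PINCH and parvin complex tie it to actin, and focal adhesion kinase and SRC pass the signal on. In glioblastoma, integrins are best known for the adhesion and migration of tumour cells on matrix.

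Promoters are printed for 3 subunits. They are ITGA2, the integrin gene past the adjusted threshold, and ITGA5, the alpha subunit with the highest mean FPKM. The third is ITGB5, the most abundant of the 3 beta subunits whose groups did not overlap. Each is the 250 bases before the RefSeq start on GRCh38.p14, written 5′ to 3′ along the gene. Capitals mark the Sp1 letters GGGCGG on either strand and, in ITGA5, the TEAD letters GGAATG.
ITGA2 promoter, chr5:52989102-52989351, plus strand: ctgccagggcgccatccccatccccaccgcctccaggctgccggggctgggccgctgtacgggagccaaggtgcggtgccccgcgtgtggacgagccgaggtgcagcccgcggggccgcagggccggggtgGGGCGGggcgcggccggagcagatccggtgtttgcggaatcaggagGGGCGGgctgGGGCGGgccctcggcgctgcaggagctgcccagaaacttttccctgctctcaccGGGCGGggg
ITGA5 promoter, chr12:54419267-54419516, minus strand: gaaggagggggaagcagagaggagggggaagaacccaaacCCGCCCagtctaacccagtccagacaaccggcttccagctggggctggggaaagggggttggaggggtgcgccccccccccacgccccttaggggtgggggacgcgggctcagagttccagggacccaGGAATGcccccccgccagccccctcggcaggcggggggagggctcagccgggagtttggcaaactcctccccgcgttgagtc
ITGB5 promoter, chr3:124901419-124901668, minus strand: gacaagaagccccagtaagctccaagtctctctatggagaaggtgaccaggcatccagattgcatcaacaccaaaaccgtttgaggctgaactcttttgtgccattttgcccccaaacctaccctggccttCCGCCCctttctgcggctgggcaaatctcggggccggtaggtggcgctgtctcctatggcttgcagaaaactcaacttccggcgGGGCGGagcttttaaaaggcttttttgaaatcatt
The ITGA2 window held 4 Sp1 matches, at -119, -73, -63 and -9 from the start. The ITGA5 window held 1 Sp1 match at -210 and 1 TEAD match at -82, and the ITGB5 window held 2 Sp1 matches, at -119 and -35. The RefSeq start of ITGA2 lies 12 bases inside the gene's first base in the deposited table, and those of ITGA5 and ITGB5 coincide with it. A RefSeq promoter was matched to 34 of the 47 genes, and 19 of the 34 held Sp1 letters, beside 42.6% of 34788 promoters of the same length. TEAD letters were in 4 of the 34 (11.9% of all promoters), AP-1 letters (TGANTCA) in 1, BCAR1 (6.59%), and a CArG box in 1, ITGB6 (1.17%), each searched on both strands. Matched starts of ITGB1, PARVB, TNS1, VCL and FERMT2 lay 47562, 25091, 23707, 2923 and 1385 bases from the deposited 5′ end. All of these held Sp1 letters, and ITGB1 and VCL also held TEAD letters. Matches are descriptions of these windows and not evidence of binding.

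Total counts per library lay between 11099909 and 14006968. NC library 3 stood apart: its correlation with the other NC libraries across genes was 0.964 to 0.968, against 0.989 to 0.992 among the libraries labelled GRIK1 siRNA, and ribosomal protein genes took 8.45% of its counts against 4.35% to 4.99% in the other 5. Its TMM factor was 0.892 against 1.01 to 1.03, and FPKM do not include that factor. GRIK1 itself had few reads and was not lower in the libraries labelled GRIK1 siRNA. Its counts were 18, 9 and 8 across NC libraries 1 to 3, and 15, 20 and 20 across the second group, or 0.233 ± 0.131 against 0.34 ± 0.0436 FPKM (SD, n = 3; two-sided exact permutation p = 0.4, where 0.1 is the smallest p possible). Both means are below the 0.5 FPKM needed for testing, so these few reads cannot decide whether GRIK1 was reduced. The study's text reports efficient knockdown of GRIK1 in U87-MG cells. The group labels are therefore used as names only, and the libraries labelled GRIK1 siRNA are called siRNA-labelled below. Among the glioma and astrocyte markers, VIM and CD44 averaged 1000.0 and 61.3 FPKM, and SOX9 averaged 2.83 FPKM. OLIG2 (0.585) and NES (0.497) were low, and GFAP (0.172), SOX2 (0.0467) and S100B (0.0133 FPKM) were close to 0. FPKM (fragments per kilobase of exon, scaled to the library's total) are the authors' values. They compare genes per base of the deposited exonic size, so an order of genes can differ from that in reads. Fold changes come from the counts after TMM scaling, with edgeR's quasi-likelihood test.

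Of the 47 genes, 33 had a mean of at least 0.5 FPKM and were tested among 15870 genes. Past an adjusted p of 0.05 (Benjamini-Hochberg, over all genes tested), 2 of the 33 were higher in the siRNA-labelled libraries, ITGA2 and PTK2, and 0 were lower. This is 6.06% of the members, beside 3.08% of all genes tested. By DESeq2, 3 members were higher and 3 lower, beside 11.8% of the 14330 genes that it gave an adjusted p. Only ITGA2 in the edgeR test also changed by more than 1 on the log2 scale (1 of 33, beside 1.41% of all genes). At an unadjusted p under 0.05 there were 8 higher and 3 lower members (33.3%, beside 25.1% of all genes). In TMM-normalized CPM (counts scaled to library size), the groups did not overlap for 16 members, 11 higher and 5 lower (48.5%, beside 38.4%). The median log2 fold change of the 33 was 0.13, beside -0.02 over all genes tested, and 19 were positive. Most members lay between 1 and 100 FPKM, with a median of 7.73 beside 3.86 for all genes tested.

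**Figure D1:**
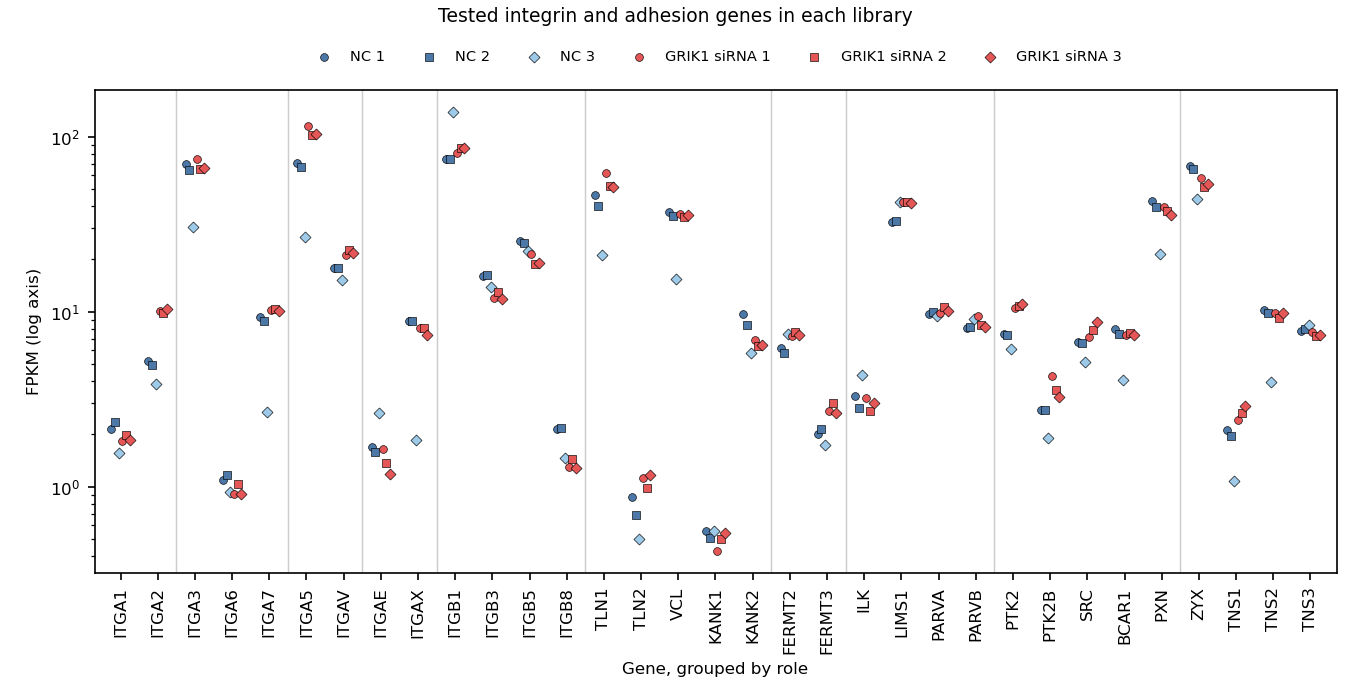
FPKM of the 33 tested genes (log axis) in each library, with NC libraries in blue (NC library 3 in light blue) and the siRNA-labelled libraries in red; vertical lines separate roles. ITGA2 and PTK2 lie above every NC library, and for ITGA5, ITGA3, ITGA7, ITGAX and VCL the NC library 3 point lies far below the other 5.

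The largest log2 fold change among the 9 tested alpha subunits was that of ITGA2, the collagen-binding partner of beta1 in alpha2beta1. ITGA2 (ENSG00000164171; chromosome 5, 52989340 to 53094779, plus strand, GRCh38) was at 5.21, 4.93 and 3.87 FPKM in NC libraries. It was at 10.04, 9.83 and 10.34 FPKM in the siRNA-labelled libraries. The groups were far apart and all 3 values of the second group were near 10. ITGA2 rose 2.04-fold (log2 fold change 1.03 ± 0.12, SE; adjusted p = 0.0205), and without NC library 3 the log2 fold change was 0.96 (adjusted p = 1.03e-08), just under the threshold of 1. The fit without NC library 3 had NC libraries 1 and 2 as its only controls, the closest pair of all. Their counts differed by a mean chi-square of 2.32 per gene, against 96.5 and 86.3 with NC library 3. Small p-values from that fit, here and below, rest on the narrow spread of these 2 controls. In bulk RNA, a larger number of cells with a transcript and more of it per cell cannot be told apart. ITGA1, the other widely expressed collagen receptor, was at 2.13, 2.33 and 1.56 FPKM in NC libraries and 1.82, 1.96 and 1.84 in the siRNA-labelled libraries. Its groups overlapped (log2 fold change -0.17 ± 0.14, adjusted p = 0.446), and without NC library 3 the values were -0.28 and 0.0156. The gene PELO lies within ITGA1 on the same strand with 73.5% as many reads, so reads may be split between ITGA1 and PELO.

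The remaining collagen receptor subunits were too low for the test. ITGA10, the chondrocyte collagen receptor, had 16, 13 and 6 reads in NC libraries and 48, 39 and 44 in the siRNA-labelled libraries. These levels were 0.163 ± 0.0833 and 0.55 ± 0.0624 FPKM (SD, n = 3), and the groups did not overlap. In the fit without a filter on low values, its log2 fold change was 1.69 (adjusted p = 0.00878), and 1.33 (adjusted p = 0.000658) when NC library 3 was also left out. ITGA11 had between 0 and 11 reads per library.

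Among the RGD receptors, ITGA5, the fibronectin receptor subunit, was the alpha subunit with the highest level in the siRNA-labelled libraries. ITGA5 (ENSG00000161638; chromosome 12, 54395261 to 54419266, minus strand) was at 70.98, 67.39 and 26.67 FPKM in NC libraries and at 114.86, 102.75 and 102.96 in the others. Every siRNA-labelled library was above every NC library, and NC library 3 was far below both of its group. The log2 fold change was 0.90 ± 0.30 (1.87-fold), with an unadjusted p of 0.0191 and an adjusted p of 0.132 in edgeR. ITGA5 passed by DESeq2 (adjusted p = 0.0376) and in edgeR without the filter on low values (adjusted p = 0.0239). Without NC library 3 the log2 fold change was 0.60 (adjusted p = 2.52e-07). ITGAV, the alpha subunit of the vitronectin receptors, was at 17.77, 17.65 and 15.11 FPKM in NC libraries and at 21.08, 22.54 and 21.68 in the others. The groups did not overlap, with a log2 fold change of 0.29 ± 0.11 (adjusted p = 0.177), or 0.27 (adjusted p = 0.000247) without NC library 3. ITGA8 and ITGA2B, the latter the platelet fibrinogen receptor subunit, had at most 1 and 7 reads.

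The laminin receptor subunits showed no call with 6 libraries. ITGA3, the laminin-332 receptor subunit, was at 69.54, 64.79 and 30.64 FPKM in NC libraries and at 74.43, 65.61 and 65.87 in the siRNA-labelled libraries. The groups overlapped, and the log2 fold change of 0.26 ± 0.25 (adjusted p = 0.546) became 0.01 (adjusted p = 0.95) without NC library 3. ITGA7, known as the muscle laminin receptor subunit, had 9.26, 8.79 and 2.67 FPKM against 10.16, 10.38 and 10.05 (log2 fold change 0.51 ± 0.37, adjusted p = 0.405). The ITGA7 log2 fold change without NC library 3 was 0.15, which passed (adjusted p = 0.0491). The opposite strand gene BLOC1S1 overlaps it with 39.9% as many reads, and whether counting used strand is not given in the sources used here. Skeletal muscle markers were at 0.11 to 0.54 FPKM in sum in NC libraries and at 2.4 to 3.12 in the others, mostly MYH3, with MYOD1 at 0 reads throughout. Their part in the ITGA7 values was not tested. ITGA6 was at 0.91 to 1.16 FPKM in all 6 libraries (log2 fold change -0.24 ± 0.16, adjusted p = 0.386).

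The leukocyte subunits were low apart from ITGAX, the alpha subunit of CD11c/CD18. ITGAX had 8.85, 8.80 and 1.85 FPKM in NC libraries and 8.03, 8.05 and 7.36 in the others, while its only known partner, ITGB2, had 0 to 3 reads per library. The value of NC library 3 was below all others, and the log2 fold change of 0.22 ± 0.46 (adjusted p = 0.784) turned to -0.20 (adjusted p = 0.0276) without it. Leukocyte markers summed to 1.27 to 1.9 FPKM in the 6 libraries, mostly from CSF1R, which averaged 1.08 FPKM. CD14 averaged 0.282 and PTPRC 0.0117 FPKM, and CD3E had 0 reads. ITGAE, the subunit that binds E-cadherin, was at 1.69, 1.57 and 2.63 FPKM in NC libraries and 1.65, 1.36 and 1.18 in the others. The groups overlapped (log2 fold change -0.61 ± 0.28, adjusted p = 0.218), and without NC library 3 the log2 fold change was -0.25 (adjusted p = 0.229). ITGAL had 31 to 65 reads and ITGAM 0 to 7. Of the alpha4 and alpha9 pair, which bind VCAM1, ITGA4 had 54, 59 and 83 reads in NC libraries and 47, 50 and 49 in the others (log2 fold change -0.62 without the filter, adjusted p = 0.201). ITGA9 had 0 to 12 reads, and its antisense gene had more.

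All 4 tested beta subunits had negative log2 fold changes with 6 libraries, and that of ITGB1 was positive without NC library 3. The groups did not overlap for 3 of the 4, beside 38.4% of all genes tested. ITGB8, the partner of alphaV that binds latent TGF-beta, was at 2.14, 2.15 and 1.46 FPKM in NC libraries and at 1.29, 1.44 and 1.27 in the others. ITGB3, the beta subunit of the alphaVbeta3 vitronectin receptor, was at 16.06, 16.10 and 13.84 FPKM against 11.95, 12.92 and 11.83. ITGB5, a further partner of alphaV, was at 25.25, 24.66 and 22.18 FPKM against 21.26, 18.79 and 18.88. Thus these 3 partners of alphaV were each lower in all 3 siRNA-labelled libraries, whereas ITGAV was higher. The other partners of alphaV among the members, ITGB1 and ITGB6, had groups that overlapped. The log2 fold changes were -0.60 ± 0.15 for ITGB8, -0.41 ± 0.11 for ITGB3 and -0.38 ± 0.11 for ITGB5, with adjusted p of 0.0743, 0.0787 and 0.103 in edgeR, so none passed the threshold. By DESeq2, and by edgeR without NC library 3, all 3 passed. Without that library the values were -0.71 (adjusted p = 1.91e-05), -0.42 (2.36e-05) and -0.37 (7.35e-05).

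ITGB1, the partner of most alpha subunits, had the highest FPKM of the 25 integrin subunits in each NC library. ITGA5 had the highest in each siRNA-labelled library. The order in the siRNA-labelled libraries depends on the exonic sizes used for FPKM, 14561 bases for ITGB1 and 7383 for ITGA5. In reads, ITGB1 was above ITGA5 in each of them, at 14477, 15752 and 16497 against 10502, 9575 and 10042. ITGB1 was at 74.04, 74.59 and 138.89 FPKM in NC libraries and at 80.28, 85.71 and 85.76 in the siRNA-labelled libraries. NC library 3 was above all the others, opposite to its place for ITGA5 and ITGA3. The log2 fold change was -0.31 ± 0.30 (adjusted p = 0.538), and 0.15 (adjusted p = 0.023) without NC library 3. The other beta subunits were near absent: ITGB4 had 10 to 19 reads, ITGB6 1 to 9, ITGB7 1 to 16, and ITGB2 0 to 3. The overlapping genes GALK1 and ZNF740 had more reads than ITGB4 and ITGB7, respectively.

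The make-up of each subunit family was compared as shares of summed FPKM, with two-sided exact permutation tests over libraries. Shares cannot give p below 0.1 with 3 against 3. ITGA5 made up 37.79%, 37.68% and 30.7% of the alpha subunit FPKM in NC libraries and 46.95%, 45.63% and 46.04% in the others. ITGA3 made up 37.03%, 36.23% and 35.27% and then 30.43%, 29.14% and 29.45%. The order of the 2 subunits was thus clear in the siRNA-labelled libraries, and in NC libraries they took similar shares. The difference for ITGA5 was 10.8 percentage points (35.4 ± 4.06 to 46.2 ± 0.677, SD, n = 3; exact permutation p = 0.1, adjusted p = 0.2 over 8 subunits). For ITGA3 it was -6.5 points (36.2 ± 0.879 to 29.7 ± 0.671; exact permutation p = 0.1, adjusted p = 0.2). Shares within a family are tied to each other, and ITGA3 itself did not fall. Its log2 fold change was 0.26 with 6 libraries and 0.01 without NC library 3. The smaller shares of ITGA1 (-0.599 points) and ITGAE (-1.0 points) had the same exact permutation p of 0.1. When any 1 library was left out, the difference was 8.47 to 12.01 points for ITGA5 and -6.96 to -6.08 for ITGA3.

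ITGB1 held the majority of beta subunit FPKM in every library, at 62.76%, 63.23% and 78.65% in NC libraries and 69.78%, 71.95% and 72.47% in the others (exact permutation p = 0.5). ITGB5 followed with 21.4%, 20.9% and 12.56% and then 18.48%, 15.77% and 15.95% (p = 0.8, exact permutation). ITGB3 took 13.61%, 13.65% and 7.837% and then 10.39%, 10.85% and 9.997% (p = 0.4, exact permutation). The shares of NC library 3 lay on the other side of the second group from those of NC libraries 1 and 2 for all 3 subunits.

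The sums of the 2 families also differed between libraries, a comparison added after the values were seen. Alpha subunits summed to 187.8, 178.8 and 86.87 FPKM in NC libraries and to 244.6, 225.2 and 223.7 in the siRNA-labelled libraries. Beta subunits summed to 118.0, 118.0 and 176.6 FPKM and then to 115.1, 119.1 and 118.3. The beta sum was therefore nearly the same in 5 libraries, and the alpha sum was higher in each siRNA-labelled library than in each NC library. The ratio of alpha to beta FPKM was 1.59, 1.52 and 0.492 in NC libraries and 2.13, 1.89 and 1.89 in the others (1.2 ± 0.614 against 1.97 ± 0.136, SD, n = 3; exact permutation p = 0.1). Without NC library 3 the groups still did not overlap (exact permutation p = 0.2, the smallest possible there). These are sums of FPKM, which depend on the exonic size of each gene, and protein or surface receptor was not measured.

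**Figure D2:**
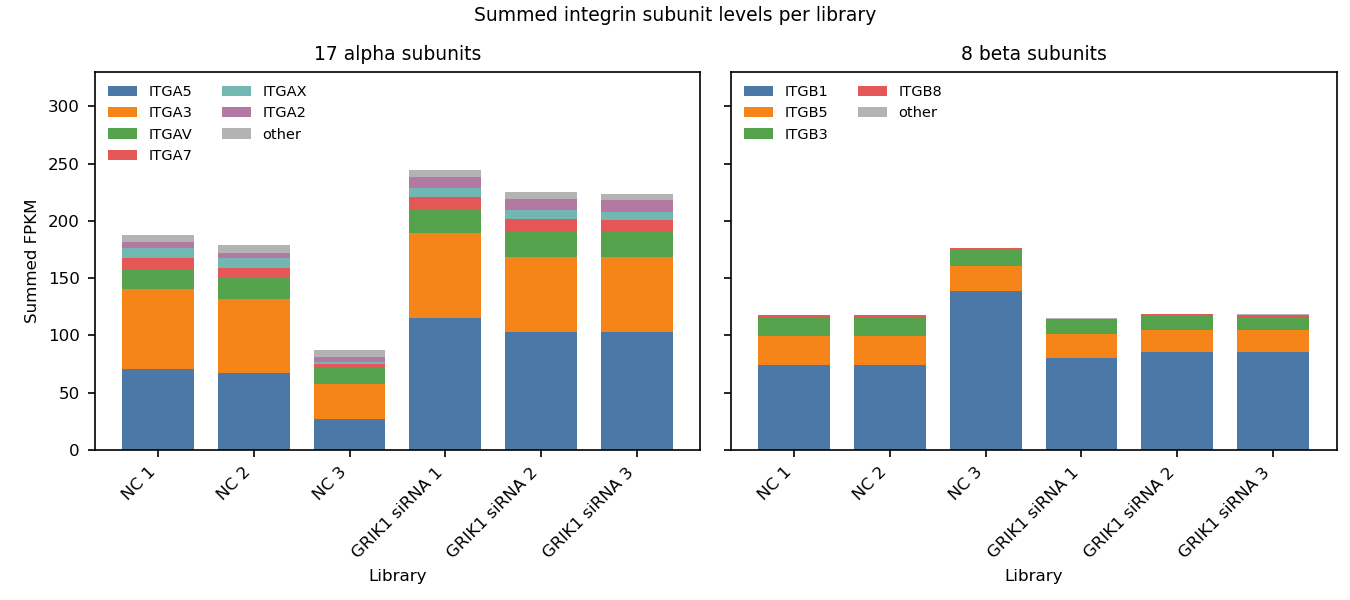
Summed FPKM of the 17 alpha subunits and the 8 beta subunits in each library, with the most abundant subunits coloured and the rest in grey. The alpha sum spans 223.7 to 244.6 FPKM for the 3 siRNA-labelled libraries against 86.87 to 187.8 for NC, and the beta sum stands out in NC library 3 alone, at 176.6.

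Of the 22 cytoplasmic members, 20 were tested and 1 rose, PTK2, which encodes focal adhesion kinase. PTK2 (ENSG00000169398; chromosome 8, 140657900 to 141002216, minus strand) was at 7.40, 7.31 and 6.12 FPKM in NC libraries and at 10.43, 10.78 and 10.99 in the siRNA-labelled libraries. The groups were well apart and each was narrow. PTK2 rose 1.46-fold (log2 fold change 0.55 ± 0.11, adjusted p = 0.0434), and by 0.52 on the log2 scale without NC library 3 (adjusted p = 7.99e-07). Over 15 alternatives the adjusted p ranged from 1.39e-10 to 0.201 for ITGA2 and from 7.99e-07 to 0.252 for PTK2, and neither passed when a library other than NC library 3 was left out. The paralog of PTK2, PTK2B (PYK2), was at 2.74, 2.75 and 1.9 FPKM against 4.27, 3.57 and 3.25, with groups that did not overlap (log2 fold change 0.51 ± 0.16, adjusted p = 0.12). SRC, the kinase that binds activated focal adhesion kinase, was at 6.70, 6.66 and 5.13 FPKM against 7.19, 7.81 and 8.74. Its groups did not overlap either (log2 fold change 0.28 ± 0.13, adjusted p = 0.221). All 3 kinases passed without NC library 3, PTK2B with 0.40 (adjusted p = 0.0108) and SRC with 0.22 (adjusted p = 0.0472). Of the scaffolds, paxillin (PXN), the most abundant of this role, was at 43.03, 39.38 and 21.48 FPKM against 39.67, 37.65 and 35.58 (log2 fold change 0.05 ± 0.21, adjusted p = 0.891). BCAR1 (p130Cas) was at 7.97, 7.43 and 4.05 FPKM against 7.34, 7.58 and 7.33, and the log2 fold changes were -0.16 for PXN (adjusted p = 0.0279) and -0.08 for BCAR1 (adjusted p = 0.354) without NC library 3.

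The talins, which couple the beta tail to actin, were both higher in all siRNA-labelled libraries without passing the adjusted threshold. TLN1 was at 46.18, 40.33 and 21.20 FPKM in NC libraries and at 62.30, 52.07 and 51.72 in the others (log2 fold change 0.56 ± 0.24, adjusted p = 0.199). TLN2, at a far lower level, was at 0.87, 0.69 and 0.50 FPKM against 1.12, 0.98 and 1.16 (0.59 ± 0.19, adjusted p = 0.116). Neither pair of groups overlapped, and without NC library 3 both passed, TLN1 with 0.33 (adjusted p = 0.00166) and TLN2 with 0.45 (adjusted p = 0.0105). Vinculin (VCL), which binds stretched talin, was at 37.28, 35.14 and 15.30 FPKM against 35.95, 34.78 and 35.81, so that 5 of the 6 libraries were alike. Its log2 fold change of 0.22 ± 0.27 (adjusted p = 0.628) became -0.05 (adjusted p = 0.413) without NC library 3. KANK2, which links talin to the cortex around adhesions, was at 9.64, 8.38 and 5.79 FPKM against 6.91, 6.35 and 6.41 (-0.35 ± 0.16, adjusted p = 0.216). NC library 3 lay on the side of the second group here, and without it KANK2 passed with -0.48 (adjusted p = 6.24e-05). KANK1 was at 0.43 to 0.56 FPKM in all libraries (adjusted p = 0.364).

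Kindlins cooperate with talin at the beta tail. FERMT3, the kindlin best known from blood cells, was at 2.01, 2.13 and 1.74 FPKM in NC libraries and at 2.71, 2.99 and 2.63 in the others. The groups did not overlap (log2 fold change 0.42 ± 0.12, adjusted p = 0.0968; without NC library 3, log2 fold change 0.40 and adjusted p = 0.00369). The overlapping gene TRPT1 on the opposite strand had 52.8% as many reads. FERMT2, the widely expressed kindlin, was at 6.20, 5.81 and 7.45 FPKM against 7.24, 7.65 and 7.34 (0.09 ± 0.16, adjusted p = 0.739). It passed with 0.28 (adjusted p = 0.00384) once NC library 3 was left out. FERMT1 had 18 to 49 reads.

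The ILK, PINCH and parvin complex, a pseudokinase scaffold between kindlin and actin, had no call with 6 libraries. LIMS1 (PINCH1) was at 32.68, 33.03 and 42.18 FPKM in NC libraries and at 42.38, 42.11 and 41.79 in the others (log2 fold change 0.13 ± 0.17, adjusted p = 0.67). In FPKM NC library 3 was near the second group, but in normalized CPM it was above every other library. Without NC library 3 LIMS1 passed with 0.33 (adjusted p = 1.99e-05). ILK was at 3.28, 2.81 and 4.32 FPKM against 3.20, 2.71 and 3 (-0.33 ± 0.23, adjusted p = 0.379), and its log2 fold change was -0.06 without NC library 3. The overlapping gene TAF10 had 335% of the reads of ILK, so its level is uncertain. PARVA and PARVB stayed between 8.02 and 10.68 FPKM in all libraries (adjusted p = 0.926 and 0.822), and LIMS2 had 0 to 3 reads. The gene SAMM50 overlaps PARVB on the same strand with 49.3% as many reads.

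Zyxin and the tensins mark mature and fibrillar adhesions. ZYX was the most abundant, at 67.92, 65.55 and 44.27 FPKM in NC libraries and 58.08, 51.36 and 53.41 in the others (log2 fold change -0.20 ± 0.15, adjusted p = 0.418; without NC library 3, -0.32 and adjusted p = 0.000138). TNS1 was at 2.11, 1.95 and 1.07 FPKM against 2.40, 2.62 and 2.90, with no overlap (0.56 ± 0.21, adjusted p = 0.165; without NC library 3, 0.35 and adjusted p = 0.00667). TNS3 was at 7.76, 7.92 and 8.42 FPKM against 7.64, 7.24 and 7.39 (-0.21 ± 0.12, adjusted p = 0.329; -0.10 without NC library 3). TNS2 was at 10.21, 9.84 and 3.94 FPKM against 9.88, 9.25 and 9.85 (0.21 ± 0.29, adjusted p = 0.66; -0.08 without NC library 3), so that the tensins did not share a direction. The opposite strand gene SPRYD3 overlaps TNS2 with 70.6% as many reads.

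NC library 3 was the highest or the lowest of the 6 libraries in normalized CPM for 29 of the 33 tested members (87.9%, beside 71.4% of all genes tested). It was below the other 5 for 19 members (57.6%, beside 35.8%) and above them for 10. It was at 0.237 of the mean of NC libraries 1 and 2 for ITGAX, 0.335 for ITGA7, 0.437 for ITGA5, 0.446 for TNS2, 0.479 for VCL and 0.517 for ITGA3. It was at 2.12 times that mean for ITGB1, 1.83 for ITGAE, 1.61 for ILK, 1.46 for LIMS1 and 1.41 for FERMT2. The low group thus held the alpha5 and alpha3 subunit transcripts with those of talin, vinculin and paxillin. The high group held the beta1 transcript and all 4 tested genes of the ILK, PINCH and parvin complex. For ITGA2, PTK2, ITGB3 and ITGB5 the 3 NC libraries were closer together.

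**Figure D3:**
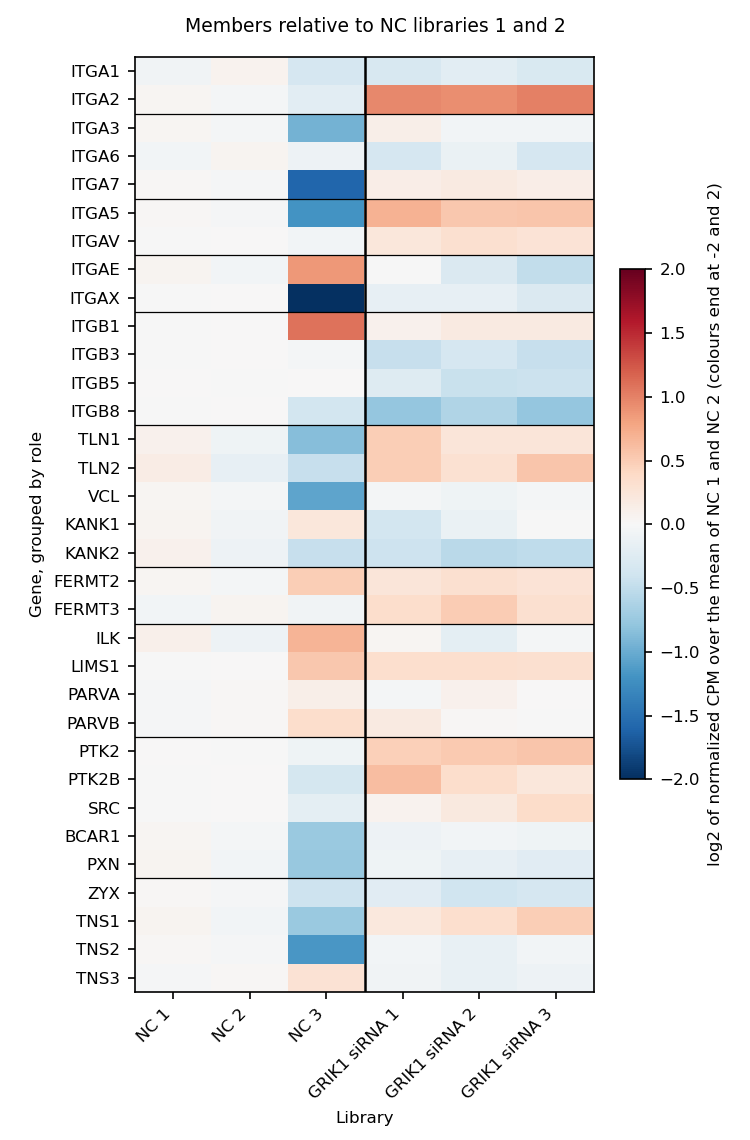
Normalized CPM of the 33 tested genes in each library, as log2 of the ratio to the mean of NC libraries 1 and 2 (red higher, blue lower); horizontal lines separate roles and the vertical line separates the groups. The NC 3 column carries the strongest colours, for example for ITGAX and ITGA7, while ITGA2, ITGA5 and PTK2 are red and ITGB8 is blue in all 3 siRNA-labelled libraries.

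When NC library 3 was left out, 22 of the 33 members passed an adjusted p of 0.05 (66.7%, beside 35.2% of all genes tested), with 14 higher (beside 16.9% of all genes) and 8 lower (beside 18.3%). The 2 genes past the threshold with 6 libraries were among the 22. By role, the 14 included ITGA2, ITGA5, ITGAV, ITGA7 and ITGB1, both talins, both tested kindlins, LIMS1, the 3 kinases and TNS1. The 8 were ITGA1, ITGAX, ITGB3, ITGB5, ITGB8, KANK2, PXN and ZYX. No member then passed this threshold with a log2 change of more than 1 in either direction, beside 491 of the 15870 genes tested. At an unadjusted p under 0.05 there were 22 members (66.7%, beside 43.5% of all genes tested). The median log2 fold change was 0.01, as it was for all genes. The sign differed between the 2 fits for 8 of the 33 members, beside 2841 of the 15870 genes tested. Leaving out any other single library gave 0 members past the adjusted threshold in edgeR. At an unadjusted p under 0.05 there were then 7 to 12 members, beside 2241 to 4434 of all genes tested.

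**Figure D4:**
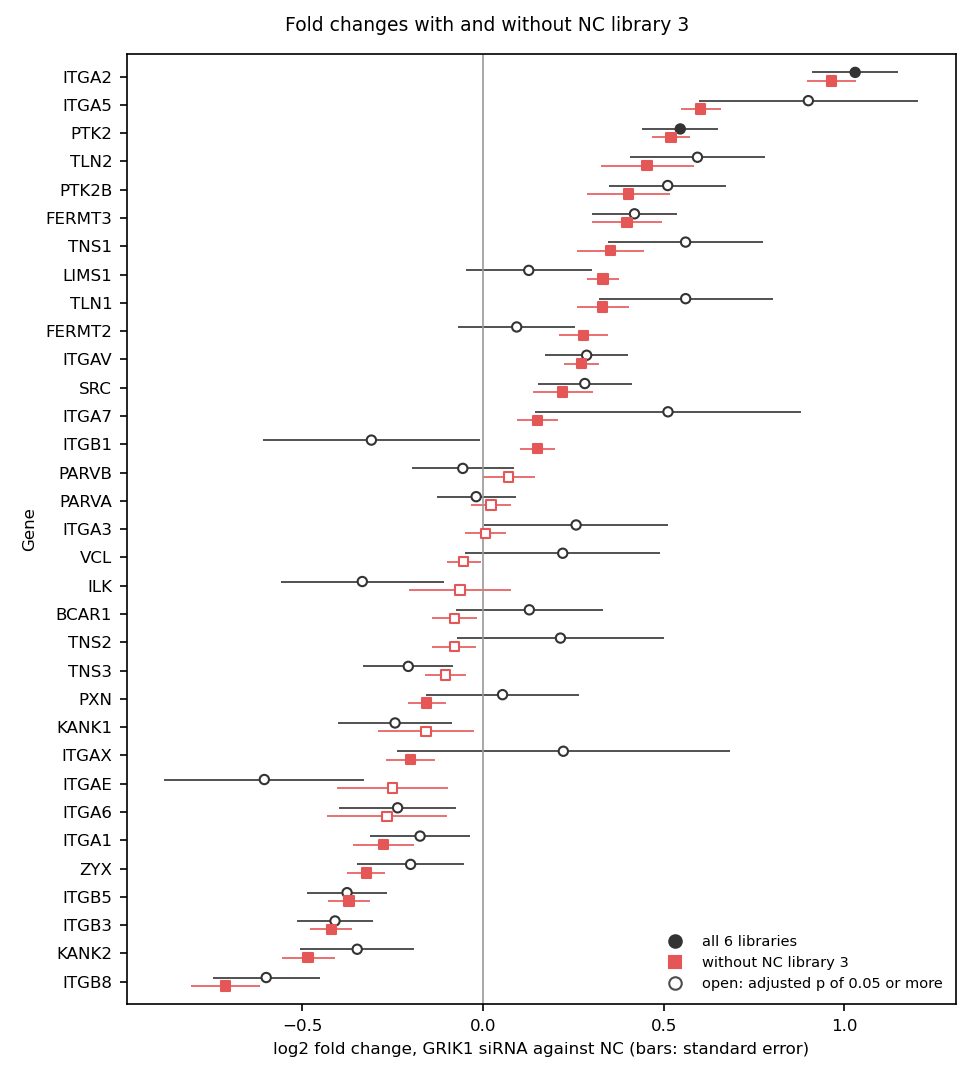
Log2 fold change of the siRNA-labelled libraries against NC for each tested gene, from edgeR with all 6 libraries (black circles) and without NC library 3 (red squares); bars are standard errors and filled symbols have an adjusted p under 0.05. With 6 libraries 2 symbols are filled, ITGA2 and PTK2, and without NC library 3 there are 22, with shorter bars.

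Genes that work with the members were taken as 5 lists. Among 28 tested integrin ligands of 44, 2 rose and 0 fell (7.14%, beside 3.08% of all genes tested). COL5A1, a chain of fibrillar collagen V, was at 15.43, 14.03 and 3.81 FPKM in NC libraries and at 51.74, 53.71 and 53.81 in the others (log2 fold change 2.21 ± 0.43, adjusted p = 0.0434). LAMA1, a laminin chain, was at 1.32, 1.19 and 0.96 FPKM against 2.42, 1.96 and 2.25 (0.85 ± 0.14, adjusted p = 0.0338). Both were higher in every siRNA-labelled library. At an unadjusted p under 0.05 there were 6 higher and 5 lower ligands (39.3%, beside 25.1%). Without NC library 3 there were 9 higher and 9 lower ligands (64.3%, beside 35.2%). The median log2 fold change was 0.36 with 6 libraries and 0.08 without NC library 3, which was below the other 5 for 20 of the 28. Of the ligands past the threshold without NC library 3, 5 changed by more than 1 on the log2 scale, beside 491 of the 15870 genes tested. They are named here after their values were seen: COL5A1, COL1A1, COL3A1 and FBN1 were higher and CCN2 was lower. The sign of COL3A1 rested on that library, with a log2 fold change of -0.11 (adjusted p = 0.932) when it was kept and 1.34 without it.

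Among 35 tested adhesion signalling genes of 39, 1 rose and 0 fell (2.86%, close to the 3.08% of all genes tested). ARHGAP26 (GRAF1), a GTPase-activating protein that binds focal adhesion kinase, was at 1.7, 1.48 and 1.13 FPKM in NC libraries and at 2.65, 2.77 and 2.71 in the others (log2 fold change 0.84 ± 0.14, adjusted p = 0.0322). The median of the list was 0.01, with 5 higher and 2 lower at an unadjusted p under 0.05 (20%, beside 25.1%). DESeq2 found 4 higher and 1 lower past its adjusted threshold, beside 11.8% of all genes. Without NC library 3 there were 11 higher and 5 lower (45.7%, beside 35.2%).

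The other lists had 0 genes past an adjusted p of 0.05 in edgeR. Their counts below stand beside 25.1% of all genes at an unadjusted p under 0.05 and 11.8% past the DESeq2 threshold. Of 29 tested plaque proteins of 35, 9 had an unadjusted p under 0.05 (31.0%) and 6 passed in DESeq2. The smallest p were those of PPFIBP1 (liprin-beta1; log2 fold change 0.46, adjusted p = 0.0626) and LPP, a zyxin relative (-0.45, adjusted p = 0.0645). Of 16 tested genes of integrin traffic and activity of 18, 3 had an unadjusted p under 0.05 (18.8%) and 1 passed in DESeq2. The smallest p there were those of RAB4A, of the fast recycling route, at 3.7, 4.24 and 5.89 FPKM against 2.85, 2.47 and 2.58 (-0.92, adjusted p = 0.0807), and SNX17, which returns beta1 integrins to the surface (-0.68, adjusted p = 0.135; -0.35 without NC library 3). This list had 3 positive log2 fold changes of 16 and a median of -0.23, which was -0.08 without NC library 3, and that library was above the other 5 for 10 of the 16. Of 22 membrane partners of integrins, 3 had an unadjusted p under 0.05 (13.6%) and 1 passed in DESeq2, and the smallest p were those of the sheddase ADAM10 (-0.37, adjusted p = 0.111) and the lectin LGALS8 (-0.35, adjusted p = 0.129). Without NC library 3, 8 plaque proteins were higher and 8 lower (55.2%), 2 traffic genes were higher and 4 lower (37.5%), and 4 membrane partners were higher and 11 lower (68.2%), beside 35.2% of all genes tested.

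Markers of other cells that use these integrins were low. Platelet markers summed to 0.54 to 2.87 FPKM over the 6 libraries, nearly all from GP1BA, with PF4, PPBP, GP9 and TREML1 at 0 reads, beside ITGB3 at 11.83 to 16.10 FPKM. Epithelial markers summed to 4.87 to 6.85 FPKM, and 3 of the 7 averaged at least 0.5 FPKM. These were KRT8 (3.19), EPCAM (1.53) and KRT18 (0.737), while KRT14 had 0 reads. Endothelial markers summed to 1.63 to 2.41 FPKM, mostly KDR.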

How the data were processed

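RNA sequencing of 6 U87-MG libraries was analysed, 3 NC and 3 labelled GRIK1 siRNA, grouped by their labels. The authors deposited 1 table of whole-number read counts per gene, without normalization, and FPKM values that the authors scaled to the library's total count and the gene's exonic size. This formula gave 100% of the deposited FPKM values within 0.005. The submitters' processing notes name cutadapt 1.9.1, HISAT2, HTSeq and GRCh38. The strand setting, the HISAT2 and HTSeq versions and the time after transfection are not given in the sources used here.

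Counts were fitted with edgeR 4.0.16 (R 4.3.3), by its quasi-likelihood test after TMM scaling and without a block. The fit covered the 15870 genes that averaged 0.5 FPKM or more, with Benjamini-Hochberg adjustment over all of them. Genes were called past an adjusted p of 0.05, and separately with an absolute log2 fold change over 1 as well. Filtered members are given as reads. Whether groups overlap was read from TMM-normalized CPM. Shares and GRIK1, the latter on log2(FPKM + 1), were compared with two-sided exact permutation tests over libraries in scipy 1.17.1. A count of 0 in a library allows up to 3 reads, and this covers counting error only.

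The members, their roles and the lists were chosen with earlier results of these data known. Full statistics were given for members past the threshold and for the largest rise, the largest fall and the highest FPKM within each role. Values per library were given for the 15 smallest p, and from each list the genes past the threshold or otherwise the 2 with the smallest p. Same-numbered libraries of the 2 groups did not deviate together (r = -0.07, 0.044 and -0.043), so numbers were not used as pairs. The closest libraries, NC 1 and 2, differed by more than sampling noise (mean chi-square 2.32 per gene), and each library was counted once.

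Alternatives were no filter or at least 1 FPKM, median-of-ratios and upper-quartile scaling, DESeq2 1.42.0, limma-trend in limma 3.58.1 on log2(FPKM + 1) and log2(FPKM + 0.1), voom with sample quality weights, a replicate block, shares of CPM, and each library left out. The ratio of alpha to beta sums and the fit without filter and without NC library 3 were added after the data were seen. In simulated counts for this comparison, with 200 of 15870 genes changed by 2 on the log2 scale, 194 were recovered with 2 false calls. Changed genes were drawn above 2 CPM, and no simulated library stood apart as NC library 3 did. The simulation therefore gives no measure of power or false calls for these libraries or for the smaller changes of the tested members. Promoters are from RefSeq on GRCh38.p14.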

Additional observations from a re-analysis of the deposited data

How the results depend on the processing

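Leaving out each library in turn gave 0 to 5591 genes past the adjusted p, 0 to 491 genes also past the fold threshold, 0 to 22 members past the adjusted p, 0 to 0 members past both, 7 to 22 members at an unadjusted p under 0.05 and a member median of 0.0059 to 0.21. The upper ends of the adjusted counts are the fit without NC library 3, and each other library left out gave 0 genes past the adjusted p in edgeR, with 2241 to 4434 genes at an unadjusted p under 0.05. Against 489 and 224 genes, DESeq2 gave 1684 and 499, no filter 1403 and 664, voom with sample quality weights 6327 and 738, limma-trend on log2(FPKM + 0.1) 280 and 125, limma-trend on log2(FPKM + 1) 113 past both thresholds, and no filter without NC library 3 gave 5785 and 795. Against 2 members past the adjusted p, DESeq2 gave 6, voom 18, limma-trend on log2(FPKM + 0.1) 1, and no filter without NC library 3 gave 20, and PTK2 was not among those past it without a filter. Against 1 member past both, no filter gave 2, and limma-trend on log2(FPKM + 1) and voom gave 0. Voom gave 22 members at an unadjusted p under 0.05, beside 7613 of all genes tested. The member median was 0.24 and 0.21 with limma-trend (pseudocounts of 0.1 and 1) and 0.0012 with voom. With the replicate number as a block, 0 genes and 0 members passed in edgeR, with 3323 genes and 11 members at an unadjusted p under 0.05, and the member median was 0.15. The cause of these differences was not tested.

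Of 33 members, 24 kept their direction in every alternative that gave them a value, which was 15 alternatives for 22 of them and 14 for TLN2 and KANK1, which were not tested at a mean of at least 1 FPKM. With voom the log2 fold change turned to -0.19 for ITGAX, 0.15 for ITGB1, -0.0325 for VCL, 0.02 for PARVA, 0.0294 for PARVB, -0.0543 for BCAR1, -0.15 for PXN and -0.0652 for TNS2. These 8 also turned without NC library 3. With limma-trend PARVA turned to 0.0685 and 0.0629 and PARVB to 0.0386 and 0.035 (pseudocounts of 0.1 and 1), and with at least 1 FPKM PARVA turned to 0.0059. Over the libraries left out, log2 fold changes ranged from -0.20 to 0.50 for ITGAX, -0.49 to 0.15 for ITGB1, -0.0532 to 0.41 for VCL, -0.0067 to 0.28 for FERMT2, -0.0526 to 0.0223 for PARVA, -0.12 to 0.0712 for PARVB, -0.0794 to 0.27 for BCAR1, -0.16 to 0.21 for PXN and -0.0796 to 0.40 for TNS2. The share difference of ITGB5 ranged from -4.42 to 0.0041 points and that of ITGA7 from -0.504 to 0.425. Depth limits the 14 untested members, most of which had fewer than 20 reads in a library.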
